A study of Homo sapiens with 2 samples.

Results

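Aminoacyl-tRNA synthetases are the enzymes that join each amino acid to its transfer RNA, the step that fixes which amino acid the ribosome reads from a codon. Human cells carry nuclear genes for a cytosolic set and a separate mitochondrial set, the second charging the tRNAs that serve the organelle's own ribosomes. Most of the cytosolic enzymes are housekeeping proteins, several of which sit in a multisynthetase complex held together by the scaffold proteins AIMP1 and AIMP2. Many genes of the cytosolic set are known targets of ATF4, the transcription factor of the amino acid response, and MYC is known to act on genes of protein synthesis in growing leukaemia cells.

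The list held 37 genes, 16 for mitochondrial enzymes, 19 for cytosolic enzymes and 2 for the scaffold. Members were taken as the genes for which at least 1 probe set carried that gene symbol and no other. This gave 33 genes with 70 probe sets, of 19775 genes named on the array, and divided into 15 mitochondrial enzymes, 17 cytosolic enzymes and AIMP1. TARS2, MARS1, QARS1 and AIMP2 had no such probe set and are not analysed here.

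The samples came from EOL-1, a line grown from human eosinophilic leukaemia, which depends on the fusion kinase FIP1L1-PDGFRA. The Glivec group was 1 culture kept for 4 h with 100 nM Glivec (imatinib, an inhibitor of PDGF receptor, KIT and ABL kinases), and the untreated group was 1 culture without it. Both were grown in the same serum-containing medium, washed once with buffer before total RNA was extracted, and hybridised to 1 Affymetrix array each. The comparison asks which transcripts differ early after the kinase is inhibited. With 1 array a group, the differences below have no replicates behind them, and neither a test nor a p-value is given. With bulk RNA from 1 line, a change in the share of cells that express a gene and a change of RNA per cell cannot be told apart.

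Values are signal intensities on the linear scale made with MAS5, and ratios are Glivec over untreated, given as log2. A floor of 13.7, the median signal over both arrays, was set under all values, and the probe set with the highest mean signal stood for its gene. All 33 genes were above the floor on both arrays by that probe set. Of the 70 probe sets, 60 were above it on both arrays, 2 on 1 array and 8 on neither. Error could be gauged only from how far probe sets of the same gene disagree, and this says nothing of how cultures vary. The pooled SD between probe sets was 0.26 (log2) over the 16 members with several probe sets above the floor, and 0.33 over all 5603 such genes. Ratios smaller than this are given as values with no direction claimed for the cells.

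The eosinophil identity of the line was visible in part. The granule genes PRG2 (6302 with Glivec, 4744 untreated) and RNASE2 (2872 with Glivec, 2146 untreated) had high signals. Of 7 measured eosinophil markers, 4 had a positive ratio and 3 a negative one. EPX had the largest positive ratio, a bound of 0.99, at 27.2 with Glivec and below the floor untreated (12.6). The negative ones were GATA2 at -1.14 (0.20 by another probe set), CSF2RB at -0.83 and CLC at a bound of -0.50. PRG3, IL5RA and SIGLEC8 were below the floor on both arrays. Genes of neutrophil granules were also present, with PRTN3 at 3971 with Glivec and 2664 untreated. Of the 3 T cell markers, CD3D and CD2 were below the floor on both arrays and CD3E was below it with Glivec. The B cell marker CD79A was above the floor on both arrays, at 94.88 with Glivec and 60.03 untreated. MS4A1, also of B cells, was below it on both by its chosen probe set, though 1 probe set of it was measured. The erythroid gene HBB, by its chosen probe set, was at 30.5 with Glivec and below the floor untreated. Its 3 measured probe sets ran from -0.06 to a bound of 1.15, and erythroid ALAS2 was below the floor on both arrays. Megakaryocyte markers were just above it on both, PF4 at 21.0 with Glivec and 15.9 untreated and ITGA2B at 18.8 and 18.9. The part of these genes of other lineages in the results was not tested. The 18 hybridisation spike-in probe sets had a median log2 ratio of 0.74. Scaling to them moves the median of all genes to -0.59, against 0.10 as deposited, and puts all 15 mitochondrial and all 17 cytosolic enzymes below 0. Signs and counts below are therefore relative to 0 in the deposited scaling, unless another scaling is named. In the deposited scaling 59.0% of all measured genes were above 0.

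Sequences near the starts of genes named below are shown first, though several of these genes have ratios smaller than the spread between probe sets. They are RefSeq sequences of build GRCh38.p14, 5′ to 3′ on the strand of the gene, from windows that run from 250 bases before to 50 bases after a transcription start and that were found for 32 of the 37 genes (44 windows). The first is the 150 bases before the start of MARS2, the gene with the largest difference of the set. It lies at chr2:197705219-197705368 on the plus strand, and the capitals mark CACGTG, the E-box to which MYC and its partner MAX bind.
MARS2: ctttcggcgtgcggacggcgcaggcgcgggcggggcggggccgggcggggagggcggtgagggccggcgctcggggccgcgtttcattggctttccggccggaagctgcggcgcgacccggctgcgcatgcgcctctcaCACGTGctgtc

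The second set is a pair of sites before the downstream of the 2 WARS1 starts in the table, on the minus strand of chromosome 14. WARS1 is the cytosolic enzyme with the largest difference and a known interferon-induced gene. The capitals mark TTCNNNGAA, the element to which STAT dimers bind (chr14:100375470-100375499), and the core of the interferon response element (chr14:100375383-100375412).
WARS1 STAT element: gctcaagtgtTTCTGAGAAtctgggtgatt
WARS1 interferon element: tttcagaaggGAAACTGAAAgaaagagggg

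The third set is the 30 bases around each match to TGATGNAA, the composite element read by ATF4 with C/EBP factors, on either strand. It is shown for the 6 cytosolic genes and the 1 mitochondrial gene with both a match and a measured signal.
AARS1: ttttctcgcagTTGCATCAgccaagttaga
CARS1: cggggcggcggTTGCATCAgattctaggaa
GARS1: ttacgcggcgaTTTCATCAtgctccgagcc
IARS1: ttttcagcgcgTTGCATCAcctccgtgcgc
NARS1: tctacgctctcTGATGCAAcgccggaatcg
TARS1: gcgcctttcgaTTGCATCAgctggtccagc
YARS2: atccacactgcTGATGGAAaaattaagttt
In order, they lie at chr16:70289675-70289704 (minus strand), chr11:3057407-3057436 (minus), chr7:30594834-30594863 (plus), chr9:92293692-92293721 (minus), chr18:57621804-57621833 (minus), chr5:33440956-33440985 (plus) and chr12:32756076-32756105 (minus). The letters TTGCATCA, or TGATGCAA read from the other strand, stand at AARS1, CARS1, IARS1, TARS1 and NARS1. GARS1 and YARS2 hold another base at the free position of the motif.

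The last is the 84 bases between the starts of HARS2 and HARS1, which are transcribed away from each other on chromosome 5. It lies at chr5:140691371-140691454 and is written on the plus strand, that of HARS2, with no motif marked.
HARS2 and HARS1: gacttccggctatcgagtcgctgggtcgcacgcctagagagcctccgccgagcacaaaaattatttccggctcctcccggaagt

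MARS2, which charges the mitochondrial tRNA for methionine, the amino acid with which the organelle starts its proteins, was far lower with Glivec than any other gene of the set. Its signal was 31.8 with Glivec and 176 untreated, a log2 ratio of -2.47 or 5.54-fold lower. The Glivec array is thus the low one, though still above the floor. Of 12705 measured genes it was the 18th from the lowest. It rests on 1 probe set, so that no second reading of the same transcript is available. Its ratio was between -3.21 and -1.02 under all alternatives tried, and at -1.02 it is a bound, because the highest floor lies above the Glivec signal.

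The other mitochondrial enzymes divided around 0. With MARS2, 9 of 15 had a negative ratio and 6 a positive one, with a median of -0.04, against 0.10 over all measured genes. At least 1.5-fold, 1 of 15 was lower (MARS2), or 6.67%, where 8.33% of all measured genes were, and 1 of 15 was higher (PARS2), also 6.67%, where 13.5% of all genes were. Each of these shares of the enzymes rests on 1 gene. With spike-in scaling 50.5% of all measured genes were at least 1.5-fold lower and 1.22% higher. In the range of mean signal that these enzymes cover, 59.1 to 1002, all genes had a median of 0.05 and 45.2% were below 0.

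PARS2, the mitochondrial prolyl enzyme, had a signal of 72.2 with Glivec and 45.9 untreated, 1.57-fold higher as deposited and at -0.08 with spike-in scaling. SARS2, which charges serine in the organelle, had 223 with Glivec and 151 untreated, a log2 ratio of 0.56, or -0.18 with spike-in scaling. Both rest on 1 probe set. HARS2, the mitochondrial histidyl enzyme, had 365 with Glivec and 276 untreated, a log2 ratio of 0.40 by 1 probe set. WARS2, for tryptophan, was at 0.39 by its brighter probe set and 0.25 by the other. For AARS2, the alanyl enzyme, both probe sets were positive, at 0.33 and 0.37. FARS2, which charges phenylalanine as a single chain, was at 0.25 and 0.10. These 6 genes make up all the positive mitochondrial ratios, and each of the 6 turns negative with spike-in scaling.

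On the negative side, NARS2, the asparaginyl enzyme, had a signal of 346 with Glivec and 505 untreated, a log2 ratio of -0.55 by 1 probe set. EARS2, which places glutamate on the mitochondrial glutamate and glutamine tRNAs, was at -0.54 by its brightest probe set (79.4 with Glivec, 116 untreated). Its other 3 probe sets were at 0.04, 0.22 and 0.48, so that the gene has no settled direction. YARS2, CARS2, VARS2, LARS2, RARS2 and IARS2 were between -0.20 and -0.03. Among them CARS2 had other probe sets at 0.08 and 0.20, and RARS2, for arginine, had others at -0.69, -0.19 and 0.07. The differences of these 6 genes are smaller than the spread between probe sets.

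The structural classes of the enzymes were compared as a description, a grouping added after the ratios were seen. Mitochondrial class II enzymes, whose catalytic core is an antiparallel sheet, had 5 of 6 genes above 0 and a median of 0.37, the exception being NARS2. Mitochondrial class I enzymes, built on a nucleotide-binding fold, had 8 of 9 below 0 and a median of -0.13, the exception being WARS2. In the cytosol class II genes had 9 of 9 below 0 and a median of -0.33, and class I genes 5 of 7 below 0 with a median of -0.15. No test of these splits was made, and with the mean over probe sets EARS2 and CARS2, both of class I, moved to 0.05 and 0.03. By the same mean KARS1, of cytosolic class II, moved to 0.09. EPRS1 holds both classes and was counted in neither.

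**Figure D1:**
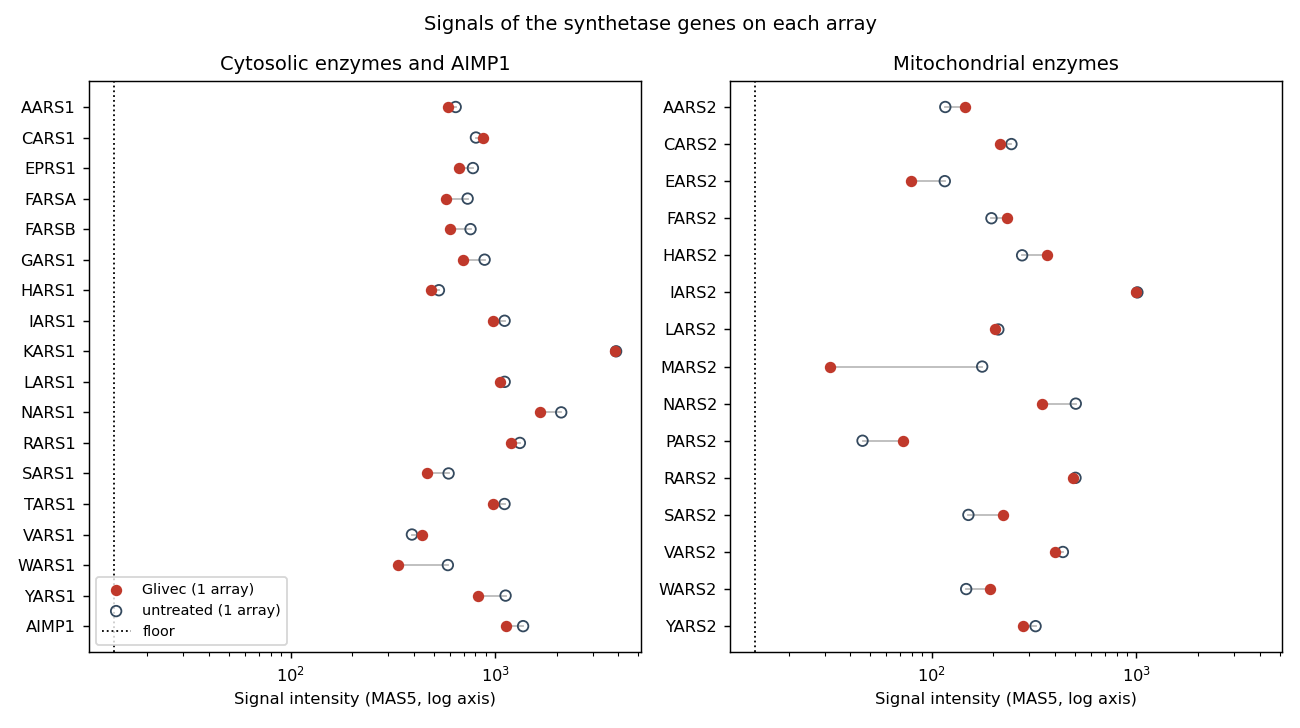
Signal intensity (log axis) of the chosen probe set of each gene, with cytosolic enzymes and AIMP1 in the left panel and mitochondrial enzymes in the right. Filled points are the Glivec array, open points the untreated array, and the dotted line is the floor of 13.7. For MARS2 the signals are 31.8 with Glivec and 176 untreated, and for most other genes the 2 points lie close together.

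The cytosolic enzymes had small ratios, most of them below 0. Of 17 genes, 15 had a negative ratio, the median was -0.19 and the range ran from -0.81 to 0.16. All genes with mean signals in the same range, 415 to 3866, had a median of 0.01 with 48.7% below 0, so that the median of the enzymes lies under that of genes as bright as they are. At least 1.5-fold, 1 of 17 was lower (5.88%, against 8.33% of all measured genes) and 0 of 17 were higher (against 13.5%), and 0 of 17 were 2-fold higher or 2-fold lower, where 3.13% and 2.63% of all measured genes were. The low median thus consists of many small ratios, each below 1.5-fold but for WARS1. Leaving out WARS1 gave a median of -0.18 over 16 genes. GARS1 and KARS1 each encode a mitochondrial form besides the cytosolic one, and without them the median stayed at -0.19 over 15 genes.

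WARS1, the tryptophanyl enzyme, had a signal of 335 with Glivec and 587 untreated by its brighter probe set, a log2 ratio of -0.81 or 1.75-fold lower. The other probe set gave 330.1 with Glivec and 430.3 untreated, or -0.38. Both probe sets have the lower signal on the Glivec array, and they differ from each other by more than the pooled SD. The mean of the 2 was -0.60 ± 0.30 (SD, 2 probe sets of 1 gene). Among the cytosolic genes with a sequence window, WARS1 is the one that holds both the STAT element and the interferon element shown above.

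YARS1, for tyrosine, came next, with a signal of 824 with Glivec and 1123 untreated, a log2 ratio of -0.45. Its other probe set was dim, below the floor with Glivec (12.9) and at 31.9 untreated, which makes it at least 2.33-fold lower. GARS1 (-0.36), SARS1 (-0.35), NARS1 (-0.34) and both chains of the phenylalanyl enzyme, FARSA (-0.34) and FARSB (-0.33), had nearly the same ratio. A second FARSA probe set was at -0.53, and a second SARS1 probe set, of low signal, at -0.16. FARSA and FARSB form 1 enzyme of paired subunits, and their chosen probe sets differ from each other by much less than the spread between probe sets. Another FARSB probe set was dim, below the floor with Glivec (3.33) and at 26.5 untreated, or at least 1.94-fold lower.

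NARS1 had signals of 1661 with Glivec and 2101 untreated. KARS1, the lysyl enzyme, had 3837 with Glivec and 3895 untreated by 1 probe set and 2110 with Glivec and 1832 untreated by the other, or -0.02 and 0.20. RARS1, for arginine, had 1192 with Glivec and 1319.5 untreated, or -0.15. These 3 genes have the highest mean signals among the enzymes. KARS1 has no difference beyond the spread of its own probe sets. NARS1 and RARS1 rest on 1 probe set each, and the RARS1 ratio is smaller in size than the pooled SD of 0.26.

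EPRS1, the fused enzyme for glutamate and proline, had 668 with Glivec and 778 untreated, and its 3 probe sets were at -0.39, -0.34 and -0.22. TARS1, IARS1, HARS1, AARS1 and LARS1 were between -0.19 and -0.08. The 4 probe sets of LARS1, for leucine, ran from -0.60 to 0.14. CARS1 and VARS1 were the positive members, at 0.12 and 0.16 as deposited and at -0.62 and -0.57 with spike-in scaling. As deposited, the median of all measured genes was 0.10. All 4 CARS1 probe sets were positive, the dimmest at 0.69, and the second VARS1 probe set was at 0.42. VARS1, for valine, is the enzyme that works bound to the elongation factor EEF1 complex.

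AIMP1, the scaffold, had a signal of 1132 with Glivec and 1368 untreated, and its 3 probe sets were at -0.38, -0.27 and -0.10. The 5 measured enzymes of the multisynthetase complex (EPRS1, IARS1, KARS1, LARS1 and RARS1) had a median of -0.15 and a range from -0.22 to -0.02. The 12 cytosolic enzymes outside the complex had a median of -0.34 and a range from -0.81 to 0.16. By chosen probe sets the complex enzymes lie in a narrow band, with that of AIMP1 just below it, and the 2 groups of enzymes overlap. Over all their probe sets the band is wider, with LARS1 from -0.60 to 0.14, KARS1 up to 0.20 and EPRS1 down to -0.39.

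**Figure D2:**
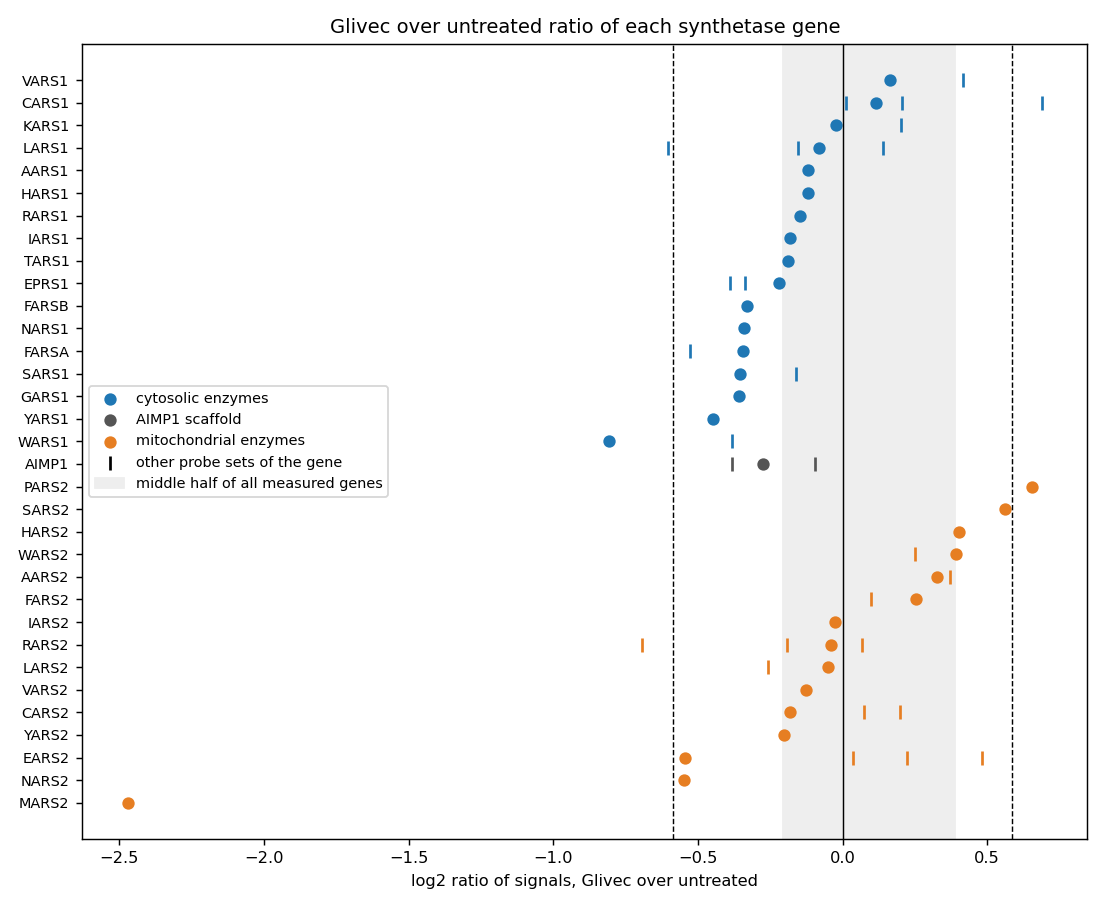
Log2 ratio of signals, Glivec over untreated, for the 33 genes by their chosen probe set (points) and by other probe sets above the floor on both arrays (ticks). Dashed lines mark 1.5-fold, and the grey band is the interquartile range of all measured genes, from -0.20 to 0.39. MARS2 stands at -2.47, WARS1 at -0.81, and the remaining genes but PARS2 lie within 1.5-fold by their chosen probe set.

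Among members with several probe sets above the floor on both arrays, 11 of 16 had all of them of 1 sign. Of 7 such mitochondrial enzymes, 3 were positive throughout and 1 negative throughout. Of 8 such cytosolic enzymes, 2 were positive throughout and 4 negative throughout. The pooled SD between probe sets, 0.26, is larger in size than many of the single cytosolic ratios. It is not the error of the cytosolic median of -0.19 over 17 genes, which was not tested.

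Setting each mitochondrial enzyme beside the cytosolic one for the same amino acid gave 15 comparisons, over 14 genes on each side, in which EPRS1 and FARS2 each count 2 times. The mitochondrial ratio was the larger in 11 and the cytosolic in 4. The median difference, mitochondrial minus cytosolic, was 0.25. In 7 the mitochondrial ratio was positive and the cytosolic negative, in 2 it was the reverse, and in 6 both were negative. For fixed probe sets, a common rescaling of an array cannot change these differences. It can change which probe set of a gene is the brightest, as it did for LARS1 with spike-in scaling and median centring. The count of 11 of 15 was also found with quantile normalization and after loess. With only probe sets free of a suffix for shared or cross-hybridising sequence it was 7 of 9. The mean over probe sets also gave 11 of 15, but not from the same pairs. By that mean EARS2 (0.05) was above EPRS1 (-0.31), and RARS2 (-0.21) was below RARS1 (-0.15).

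By chosen probe sets, tryptophan showed the widest gap, with WARS2 at 0.39 and WARS1 at -0.81, a difference of 1.20. Serine followed, with SARS2 at 0.56 and SARS1 at -0.35, and then proline, with PARS2 at 0.65 and EPRS1 at -0.22. This order depends on the probe sets. With the mean over probe sets WARS2 was at 0.32 and WARS1 at -0.60, and the gap between PARS2 (0.65) and EPRS1 (-0.31) was the wider. For histidine, HARS2 was at 0.40 and HARS1 at -0.12 (488 with Glivec, 531 untreated), although their starts lie only 84 bases apart and face away from each other across the bases printed above. Each of the 2 rests on 1 probe set. In the other direction EARS2 was at -0.54 and EPRS1 at -0.22, CARS2 at -0.18 and CARS1 at 0.12, VARS2 at -0.13 and VARS1 at 0.16, and NARS2 at -0.55 and NARS1 at -0.34. The other EARS2 probe sets, at 0.04, 0.22 and 0.48, were above all those of EPRS1. For leucine, arginine and isoleucine the 2 enzymes differed by 0.03 to 0.16. For methionine only the mitochondrial enzyme, MARS2, was measured.

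**Figure D3:**
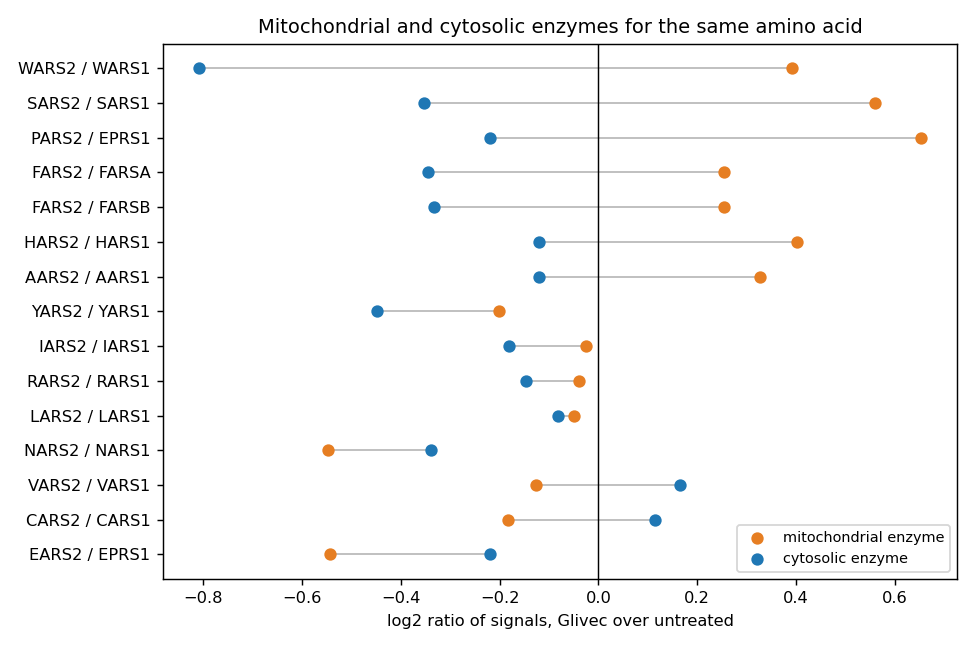
Log2 ratio of signals, Glivec over untreated, of the mitochondrial and the cytosolic enzyme for the same amino acid, joined by a line and ordered by their difference. By the chosen probe sets shown, the mitochondrial point lies to the right in 11 of 15 comparisons, with the widest gap for WARS2 and WARS1. Positive ratios hold for the deposited scaling and turn negative with spike-in scaling.

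The set was also placed under other scalings of the arrays. The median of the 15 mitochondrial and of the 17 cytosolic enzymes was -0.01 and -0.17 with quantile normalization, -0.10 and -0.25 when medians were centred, -0.02 and -0.19 once a loess trend was removed, and -0.78 and -0.93 relative to the spike-ins. Both medians were below that of all measured genes in each case. The mitochondrial median exceeded the cytosolic by 0.15 to 0.18 under these settings.

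**Figure D4:**
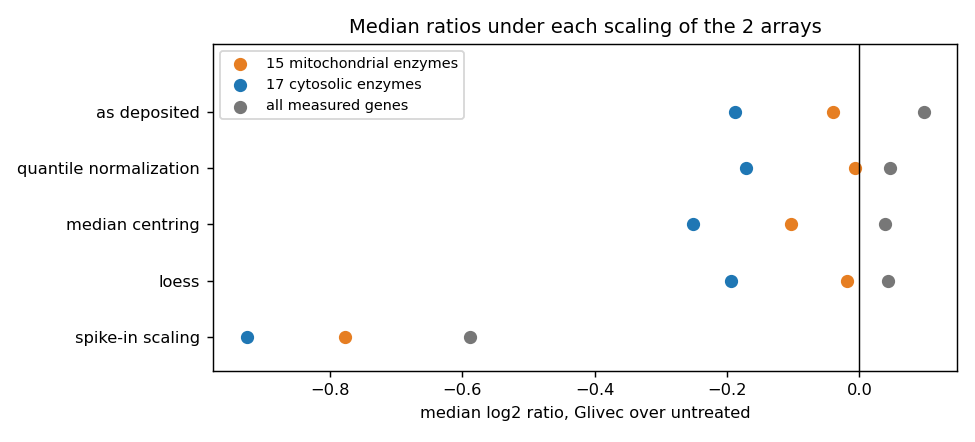
Median log2 ratio, Glivec over untreated, of 15 mitochondrial enzymes, 17 cytosolic enzymes and all measured genes, under the deposited scaling and 4 others. In each row the cytosolic median is the lowest and that of all genes the highest, and all 3 lie far below 0 with spike-in scaling only.

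The sequence windows around the starts gave a second view of the set, and some of the matches lie across or after a start. TGATGNAA on either strand was found in 8 of 44 member windows (18.2%), all of different genes, and in 3.62% of 35116 windows over all genes. Besides the 7 genes printed above, the match was found at MARS1. The 6 measured cytosolic genes with a match had a median log2 ratio of -0.18, with 5 of 6 below 0, and the 8 cytosolic genes with a window but no match had a median of -0.28, with 8 of 8 below 0. The groups overlap, and CARS1, with a match, is the positive one. CACGTG was found in 6 member windows (13.6%), of the genes MARS2, EARS2, CARS2, IARS1 and AIMP2, and in 7.26% of all windows. At MARS2 it lies 11 to 6 bases before the start. TTCNNNGAA was found in 7 member windows (15.9%) against 7.66% of all, at PARS2, WARS2, CARS1, TARS1 and WARS1. The interferon response element core was found in 3 member windows (6.82%) against 3.57% of all, at EARS2 and WARS1. Several genes have more than 1 window, and windows of 1 gene overlap. A match is a description of these letters and shows no binding.

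Other genes of the pathway were read from lists. Of 16 other genes of tRNA charging, 10 were measured, with 4 above 0, 6 below and a median of -0.14. At least 1.5-fold, 1 was higher (10%, against 13.5% of all measured genes) and 1 lower (10%, against 8.33%), which is near the shares of all genes. SEPSECS, which finishes the making of selenocysteine on its tRNA, had 204 with Glivec and 128 untreated, or 0.67, and its 4 probe sets were between 0.58 and 0.67. GATC, a subunit of the amidotransferase that turns mitochondrial glutamyl into glutaminyl tRNA, had 213 with Glivec and 360 untreated, or -0.76, and -0.15 by another probe set. Its partner subunits GATB and QRSL1 were at 0.36 and -0.04, and the 4 measured QRSL1 probe sets ran from -0.41 to 0.54. TRNT1, which adds the CCA end on which every amino acid is loaded, was at -0.56, with its 3 probe sets between -0.86 and -0.46. MTFMT, which formylates the methionyl tRNA that MARS2 makes, had 67.3 with Glivec and 89.0 untreated, or -0.40 by 1 probe set.

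Of 10 mitochondrial translation factors, 9 were measured, with 4 above 0, 5 below, a median of -0.04 and 0 past 1.5-fold, where 8.33% of all measured genes were lower and 13.5% higher. TSFM, the exchange factor for the elongation factor TUFM, was at -0.57, with its 3 probe sets between -0.94 and -0.57, and TUFM itself at 0.17. Of the 5 cytosolic elongation factors listed, the 3 measured were EEF2 at 0.54, EEF1D at 0.43 and EEF1A1 at 0.13, all negative with spike-in scaling. EEF1D and EEF1A1 act in bringing charged tRNAs to the ribosome and EEF2 moves it along. By the chosen probe sets, the ratios of EEF2 and EEF1D were above those of all 17 cytosolic synthetases. Over all probe sets they overlap, since EEF1D ran from 0.13 to 0.93 and CARS1 reached 0.69. For EEF1A1 the 6 measured probe sets ran from 0.13 to 0.64.

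Of 26 genes of the ATF4 amino acid response, 24 were measured, with 9 above 0, 15 below and a median of -0.14. At least 1.5-fold, 6 were lower (25% of the list, against 8.33% of all measured genes) and 1, VLDLR, was higher (4.17%, against 13.5%). The amino acid transporter genes SLC7A1 and SLC7A5 and the pseudokinase gene TRIB3 were at -1.57, -1.39 and -1.26. The 5 measured SLC7A1 probe sets ran from -1.57 to -0.02, and another TRIB3 probe set was at -0.55. The transcription factor gene CEBPB was at -0.93, with 414 with Glivec and 790 untreated. CHAC1, a glutathione-degrading enzyme, was at least 1.70-fold lower, its Glivec signal being below the floor. In the other direction the lipoprotein receptor gene VLDLR was at 0.68, SESN2 at 0.45 and SLC7A11, a cystine transporter gene, at 0.30 (-0.09 by another probe set), all 3 of them negative with spike-in scaling. ASNS, which makes asparagine, was at -0.41, and ATF4 itself at -0.15 with 2115 with Glivec and 2349 untreated. The median of this list was near that of the cytosolic synthetases, but its range was wider, from -1.57 to 0.68.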

How the data were processed

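Gene expression was measured in EOL-1 cells on 1 Affymetrix array for the Glivec culture and 1 for the untreated culture. Each deposited value is the signal intensity of a probe set on a linear scale. MAS5 is named for it per the submitters' processing notes, but no version was given in the sources used here. Without the lowest and highest tails the mean was 100.014 on both arrays, so the authors' files had been scaled to a common level. The number of arrays limits the precision. No test was possible, since each group has 1 array.

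Probe sets were named from the platform annotation, which can be old. Of 54675 probe sets, 41097 had 1 symbol, and the 1801 with several were not used. The Entrez identifiers of all 70 member probe sets matched RefSeq genes of GRCh38.p14, with 0 symbols changed. Signals below the floor (the median of all non-control signals, 13.7) were raised to it before log2. The probe set with the highest mean signal stood for its gene, with _x_at probe sets used only where no other existed. Genes above the floor on at least 1 array counted as measured. This left 12705 of 19775 genes. Counts used 1.5-fold, with 2-fold as an alternative, and stand beside the share over all measured genes.

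The members, the lists, the thresholds and the alternatives were chosen with earlier results of these data known. Members past 1.5-fold, their partners for the same amino acid, the 3 of highest mean signal and AIMP1 were given in full, with up to 5 genes of each other list by the size of their ratios. Other members and genes were named, after their values were seen, where they complete a group. Alternatives were quantile normalization, median centring, loess (span 0.3), spike-in scaling, a floor at the 40th, the 60th or the 75th percentile, a pseudocount of 0.646 without floor, the mean over probe sets and only probe sets without suffix. The calculation was tested on simulated data. Python 3.11.15, numpy 2.4.6, pandas 2.3.3, statsmodels 0.14.6 and matplotlib 3.10.9 were used.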

Additional observations from a re-analysis of the deposited data

How the results depend on the processing

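No paired analysis was possible because there is 1 array a group, which also leaves no replicate to omit. A value counts as moved where it changed by more than the pooled spread between probe sets (for a median, by more than its error from that spread), and a count when it differed by more than 1.5 times. Of 70 such comparisons of medians and counts, 55 stayed within these limits and 15 moved. Spike-in scaling moved the median to -0.78 for mitochondrial and -0.93 for cytosolic enzymes, and the counts at least 1.5-fold lower to 9 of 15 and 16 of 17, with 0 of 15 mitochondrial enzymes higher. It also turned PARS2, positive as deposited, to a log2 ratio of -0.085. That shift follows from its construction, since all genes move down together. The count of mitochondrial enzymes at least 1.5-fold lower was 2 with quantile normalization, 3 with median centring and 2 after loess. The count higher was 0 with quantile normalization, after loess, with the floor at the 75th percentile, which lies above the signals of PARS2, and at the 2-fold threshold. The count of cytosolic enzymes lower was 3 with the mean over probe sets, 2 of 11 with only probe sets without suffix and 0 at the 2-fold threshold. Floors at the 40th and 60th percentile, the pseudocount and leaving out GARS1 and KARS1 moved none of these values. Over all genes, those at least 1.5-fold lower numbered 6477 and those higher 156 with spike-in scaling, 613 and 600 with the floor at the 75th percentile, and 1058 and 1711 as deposited. The cause was not tested except where the construction shows it. Nearness to the floor limits the dim probe sets of FARSB, TARS1 and YARS1.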
